A study of Mus musculus with 2 samples.

Results

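Small nucleolar RNAs (snoRNAs), their relatives in Cajal bodies (scaRNAs) and the genes that carry them were described in G1E, an immortalised mouse line. Members were all genes of both deposited gene tables whose mouse symbol begins with Snora, Snord, Scarna or Snhg followed by a digit, or is Gas5. These were 160 of 43346 genes: 40 box H/ACA snoRNAs (Snora), 97 box C/D snoRNAs (Snord), 9 scaRNAs, 13 host genes (12 Snhg and Gas5) and 1 long entry named Snora43. That entry had a length of 1215 nucleotides (nt) in the deposited table of replicate 1, against 139 nt between its annotated ends at chr2:26637847-26637985, so it was kept apart from the H/ACA snoRNAs. Snhg7os, listed with the host genes by its symbol, is annotated as antisense and had no count.

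Guide RNAs of this kind pair with other RNAs and bring a protein complex to the paired site. Box C/D RNAs carry a C box (TGATGA as DNA) and a D box (CTGA), bind fibrillarin and guide methylation of the ribose. Box H/ACA RNAs end shortly after the letters ACA, bind dyskerin and guide the change of uridine to pseudouridine. Snora73, Snord118 and some other members act instead in the cutting of the ribosomal RNA precursor. ScaRNAs have one or both kinds of box and mostly guide the modification of spliceosomal RNAs. In mammals most guide RNAs are cut from introns of host genes, and an Snhg gene is a host that mostly makes no protein.

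The libraries came from 2 biological replicates of 1 group, labelled as a Gata1- erythroid progenitor line of C57BL/6J strain and male sex, with no treatment named. Each was made from 1 ng of total RNA longer than 200 nt, with spike-in RNAs added. No group was compared with another, so the text describes levels and sets the libraries against each other. The replicates are labelled biological, but the labels do not say whether they came from separate cultures, so the spread between them may be technical.

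The estimated counts, which are reads assigned to each gene and divided among similar genes where needed, came to 31649878 (replicate 1) and 40597614 (replicate 2). At this depth a gene without a count may still have up to 0.0948 and 0.0739 CPM (3 counts), and intervals and floors here cover counting error only. Of the estimated counts, nuclear protein-coding genes held 8513094 and 7669565. Replicate 2 thus had the larger total but fewer counts on those genes. All 9 erythroid progenitor markers on the list had a level of at least 1 TPM (counts per effective length, scaled to a fixed library sum) in both libraries, from 5.76 TPM for Epor to 145 TPM for Kit as means. Gata1 RNA itself had 798 and 649 estimated counts, so the label Gata1- does not show as an absence of its RNA here. Of 10 markers of T cells, B cells, endothelium, fibroblasts, pluripotent cells and epithelium, 9 had no count and Pecam1 had 3 and 0. The median gene had a TPM 1.55-fold higher in replicate 1, and SDs of TPM below include that offset.

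The sequences that follow are from the GENCODE M21 transcripts on GRCm38 and show the members on which the levels turn: the most abundant guides of each class, the guides that differed between the libraries, and short or absent guides for contrast. They are printed 5′ to 3′ as DNA letters. Capitals mark the C box letters TGATGA in the first 20 bases, the D box letters CTGA in the last 20 (both for C/D snoRNAs and Scarna10) and ACA in the last 8 (H/ACA snoRNAs, Scarna13 and Scarna10), each read on the strand of the RNA, where these letters occur. Of Scarna10 the first 300 of 325 bases are shown, without its D box.
Scarna13: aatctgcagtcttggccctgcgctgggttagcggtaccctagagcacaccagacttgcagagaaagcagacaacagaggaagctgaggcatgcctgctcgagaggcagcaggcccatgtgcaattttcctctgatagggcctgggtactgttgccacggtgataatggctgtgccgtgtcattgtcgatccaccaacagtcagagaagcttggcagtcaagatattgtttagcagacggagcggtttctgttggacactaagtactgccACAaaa
Scarna10: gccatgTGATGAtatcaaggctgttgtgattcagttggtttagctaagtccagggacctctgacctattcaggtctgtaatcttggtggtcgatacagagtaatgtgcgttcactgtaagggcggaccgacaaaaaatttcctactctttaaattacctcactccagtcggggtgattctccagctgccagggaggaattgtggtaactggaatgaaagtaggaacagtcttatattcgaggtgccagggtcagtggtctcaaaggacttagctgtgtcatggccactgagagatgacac
Snora73a: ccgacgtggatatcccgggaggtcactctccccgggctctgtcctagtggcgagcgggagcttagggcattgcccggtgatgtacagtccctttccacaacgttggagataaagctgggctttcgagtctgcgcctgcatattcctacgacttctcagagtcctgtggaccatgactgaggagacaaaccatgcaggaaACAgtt
Snora73b: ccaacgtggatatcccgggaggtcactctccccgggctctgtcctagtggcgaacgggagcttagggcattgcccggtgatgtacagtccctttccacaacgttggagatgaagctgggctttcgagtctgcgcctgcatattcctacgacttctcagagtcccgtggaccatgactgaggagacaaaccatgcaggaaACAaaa
Snora57: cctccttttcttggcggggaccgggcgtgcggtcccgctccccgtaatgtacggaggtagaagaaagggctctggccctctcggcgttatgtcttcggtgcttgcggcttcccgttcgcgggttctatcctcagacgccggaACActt
Snora64: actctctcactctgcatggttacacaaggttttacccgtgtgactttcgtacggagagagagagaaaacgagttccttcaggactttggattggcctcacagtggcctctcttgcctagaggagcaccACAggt
Snora81: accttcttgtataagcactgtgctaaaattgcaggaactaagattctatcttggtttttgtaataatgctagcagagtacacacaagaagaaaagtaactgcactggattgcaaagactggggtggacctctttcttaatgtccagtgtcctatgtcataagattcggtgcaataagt
Snord17: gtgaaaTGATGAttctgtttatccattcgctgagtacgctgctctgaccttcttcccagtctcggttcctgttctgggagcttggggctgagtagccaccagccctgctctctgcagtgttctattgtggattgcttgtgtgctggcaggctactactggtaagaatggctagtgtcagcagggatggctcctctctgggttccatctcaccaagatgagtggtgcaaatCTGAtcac
Snord15b: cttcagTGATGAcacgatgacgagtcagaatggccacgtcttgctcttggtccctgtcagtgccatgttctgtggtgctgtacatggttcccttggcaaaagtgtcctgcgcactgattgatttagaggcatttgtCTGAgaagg
Snord118: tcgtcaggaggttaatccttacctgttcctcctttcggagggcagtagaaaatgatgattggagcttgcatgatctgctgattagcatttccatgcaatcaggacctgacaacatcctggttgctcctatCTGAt
Snord47: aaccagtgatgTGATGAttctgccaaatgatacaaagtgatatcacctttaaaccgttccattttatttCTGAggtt
Snord116l1: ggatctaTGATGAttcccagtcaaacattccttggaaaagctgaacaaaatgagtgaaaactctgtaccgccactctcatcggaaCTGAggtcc

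These RNAs lie at chr12:105031075-105031349 (minus strand, Scarna13), chr6:125186384-125186683 (minus, the part of Scarna10 shown), chr4:132352775-132352979 (minus, Snora73a), chr4:132352322-132352526 (minus, Snora73b), chr19:8888538-8888685 (minus, Snora57), chr17:24720772-24720905 (plus, Snora64) and chr16:23110756-23110933 (plus, Snora81). The C/D snoRNAs lie at chr2:144265979-144266216 (minus, Snord17), chr7:99479563-99479707 (minus, Snord15b), chr11:69073427-69073561 (plus, Snord118), chr1:161038082-161038158 (plus, Snord47) and chr7:59894620-59894713 (minus, Snord116l1). ACA stood in the last 8 bases of 38 of 40 H/ACA snoRNAs, against 12.2% of 24715 other M21 transcripts of 60 to 450 nt. TGATGA stood in the first 20 bases of 69 of 97 C/D snoRNAs (1.69% of the other transcripts), and CTGA in the last 20 of 95 of 97 (11.4%). TGATGA and CTGA share the letters TGA, but their windows do not overlap, since every guide has 64 nt or more. Snora73a and Snora73b were identical at 198 of 205 aligned positions (96.6%), and the 17 Snord116 copies held 4 different sequences. No ACA stood in this window of Snora81, and no TGATGA in that of Snord118.

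Detection followed the length of the RNA. Of 146 guide RNAs 39 had any estimated count in either library: 26 of 40 H/ACA snoRNAs, 7 of 97 C/D snoRNAs and 6 of 9 scaRNAs. Among host genes 10 of 13 had counts. With a TPM of at least 1 in both libraries, which 21.1% of all genes reached, 20 H/ACA snoRNAs, 4 C/D snoRNAs, 5 scaRNAs, 9 host genes and the long Snora43 entry remained. At least 10 counts in each library were reached by 7 H/ACA snoRNAs, 3 C/D snoRNAs, 3 scaRNAs and 9 hosts.

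The median length was 84 nt for C/D snoRNAs, 132.5 nt for H/ACA snoRNAs and 140 nt for scaRNAs. None of the 51 guide RNAs up to 84 nt had a count, and 3 of 37 from 85 to 99 nt did, with 4.58 counts in all. None of 7 from 100 to 124 nt had a count, but 26 of 41 from 125 to 149 nt did, as did all 3 from 150 to 199 nt. All 7 guide RNAs of 200 nt or more had counts, which summed to 2316 over both libraries. Among all other genes the share with a count also rose over these lengths, from 0.355% up to 84 nt to 8.70% at 125 to 149 nt and 12.8% at 200 to 450 nt. The selection of RNA over 200 nt, the fit of short genes and a low level of the RNA in the cells cannot be told apart for a guide RNA without counts.

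Compared at 1 length, the shares of each class with a count were closer. From 125 to 149 nt, 21 of 34 H/ACA snoRNAs, 3 of 4 C/D snoRNAs and 2 of 3 scaRNAs had counts. The median count over both libraries was 2.32, 24.9 and 1 in that order. The C/D snoRNAs with counts at this length were Snord15a, Snord15b and Snord22. The fourth, Snord118, an RNA of 135 nt that is needed to process the precursor of the large subunit RNA, had no count in either library. Snord118 was chosen after its counts were seen.

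Length entered the deposited levels in a further way. TPM divides the count by an effective length, which was 114 nt (replicate 1) or 124 nt (replicate 2) less than the full length for the median gene. It was 0 in both libraries for 47 of the 97 C/D snoRNAs, and no gene longer than 85 nt had that value. A single count of a short snoRNA was therefore worth many TPM. Snord14e, at 90 nt, had 0 and 0.97 estimated counts and 0 and 16.6 TPM, whereas Snord17, at 238 nt, had 37 counts in each library and 14.0 and 10.9 TPM. The authors' posterior mean TPM, a second deposited estimate, was at least 1 in both libraries for 39 of the 90 C/D snoRNAs with no count. Its highest value among these was 28.3 and 28.7 TPM, for Snord14c (86 nt, named after its values were seen), whose effective length was 1.61 and 1.15 nt. Counts are accordingly given beside each TPM.

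**Figure D1:**
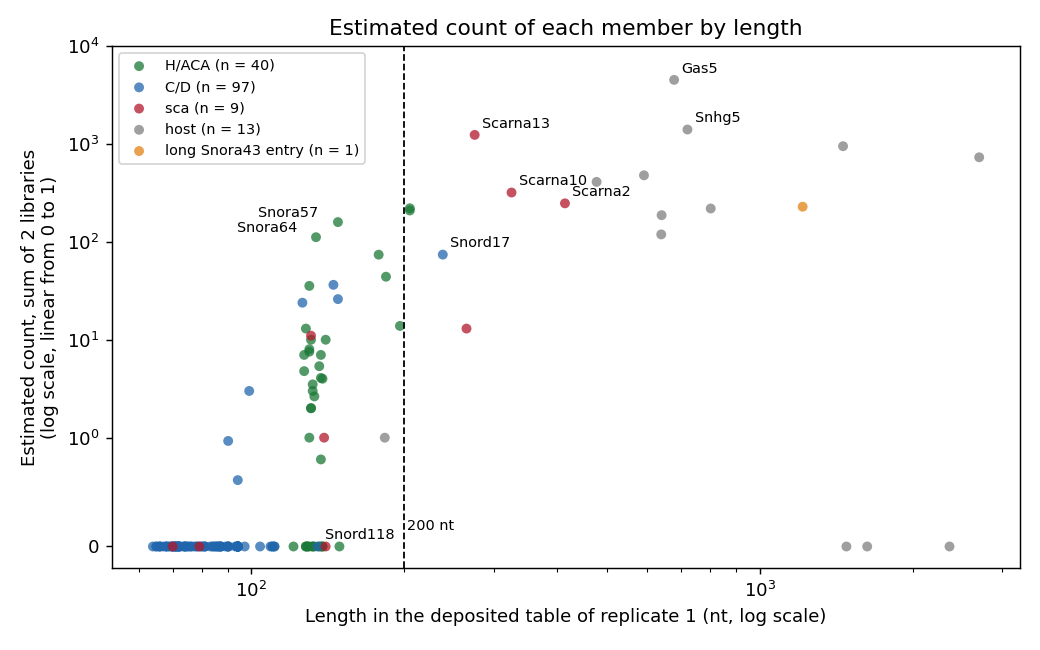
Estimated count of each member, summed over both libraries, by its length in the deposited table of replicate 1 (both axes logarithmic, the count axis linear from 0 to 1). Points are single genes coloured by class, and the dashed line marks 200 nt. The 51 guide RNAs up to 84 nt lie at 0 and all 7 guide RNAs of 200 nt or more lie above 10 counts.

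Host genes took most of the counts on members, 4784 in replicate 1 and 4211 in replicate 2, or 0.0127% ± 0.00335 (SD, n = 2) of the library. ScaRNAs had 771 and 1054 counts (0.00252% ± 0.000114, n = 2), and H/ACA snoRNAs 444 and 518 (0.00134% ± 0.0000904). C/D snoRNAs, the largest class by number of genes, had 74.5 and 90.4 counts (0.000229% ± 0.00000902). These shares are of all counts, ribosomal and mitochondrial genes included. They and their SDs therefore also shift with the part of each library that falls on those genes. In bulk RNA a smaller number of cells with an RNA and less of it per cell cannot be told apart.

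Among scaRNAs, Scarna13 stood highest. It had 594 and 641 estimated counts and 173 and 143 TPM, a level of 158 ± 21.0 TPM (SD, n = 2). Gas5 was the only host gene near this level, at 160 ± 52.2 TPM. Scarna2, with 122 and 125 counts, had 19.1 and 14.6 TPM. Scarna10, which carries both kinds of box, had 43.1 and 275 counts and 9.60 and 46.5 TPM. The rest were low: Scarna8 had 5 and 6 counts, Scarna6 had 6 and 7, and Scarna3b had 1 and 0. Scarna6, at 265 nt, lies above the size limit of the library and still had few counts.

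Among H/ACA snoRNAs, Snora57 and Snora64 had the highest TPM. Snora57 had 67 and 92 counts and 78.7 and 91.2 TPM (85.0 ± 8.83, SD, n = 2). Snora64, which lies in the gene of the ribosomal protein Rps2, had 48.0 and 63.4 counts and 79.0 and 90.3 TPM (84.6 ± 7.93). These levels did not differ beyond their spread. By count the pair of Snora73 RNAs, which bind the precursor of the small ribosomal subunit, led the class. Snora73b had 124 and 96 counts and 63.0 and 38.8 TPM, and Snora73a had 102 and 106 counts and 52.1 and 43.0 TPM. These copies are 96.6% identical. The deposited posterior SD of the count, which covers the division of shared reads, was 0 in both libraries for Snora73b. It was 3.12 and 2.29 counts for Snora73a. The host gene Snhg3, of which Snora73a overlaps an annotated exon, had the same 3.12 and 2.29.

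A second tier of H/ACA snoRNAs had between 8 and 74 counts over both libraries. Snora81 had 19.3 and 54.6 counts (13.6 and 31.2 TPM), Snora23 had 21 and 23 (13.6 and 12.1 TPM), and Snora65 had 16.1 and 19.4 (29.6 and 31.2 TPM). Snora78 had 2 and 11 counts, Snora24 had 1 and 7, and Snora68 had 6 and 4. Snora74a, at 5.19 and 8.65 counts, and Snora7a, at 4 and 6, completed the 12 with the highest counts. The levels of Snora23 and Snora65 were close in both libraries, and Snora78, Snora24 and Snora81 had more counts in replicate 2. The other H/ACA snoRNAs with counts had fewer than 8 over both libraries each, among them the shorter row named Snora43 (127 nt) with 0.69 and 4.09.

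The 7 C/D snoRNAs with counts split at 125 nt. Snord17, the longest at 238 nt, had 37 counts in each library. Snord15b had 19.7 and 16.7 counts and 24.7 and 17.7 TPM, and Snord15a, in the same host gene Rps3, had 10 and 16 counts and 11.8 and 15.9 TPM. Snord22 had 7.15 and 16.7 counts and 14.9 and 30.7 TPM. Snord16a had 0 and 3 counts, Snord14e 0 and 0.97, and Snord21 0.61 and 0. Each of the last 3 had counts in 1 library only, at or below the floor of 3.

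Among host genes, Gas5, a growth arrest gene whose introns hold many C/D snoRNAs, had 2357 and 2148 counts and 197 and 123 TPM. Snhg5 followed with 753 and 648 counts (58.4 and 36.1 TPM), then Snhg3 with 241 and 169 (31.1 and 16.4 TPM) and Snhg12 with 264 and 214 (26.0 and 16.0 TPM). Snhg17 had 475 and 472 counts and 16.6 and 8.81 TPM. The remaining detected hosts lay below 10 TPM in both libraries. Snhg6 had 9.82 and 5.88 TPM, Snhg20 had 6.66 and 4.76, Snhg14 had 7.80 and 3.05, and Snhg15 had 5.28 and 4.26. All 9 were lower in TPM in replicate 2, as was the median gene. The order by mean TPM placed Snhg3 and Snhg12 next to each other at 23.8 ± 10.4 and 21.0 ± 7.06 TPM (SD, n = 2), which did not differ beyond their spread. Snhg9 had 0 and 1 count, and Snhg11, Snhg18 and Snhg7os had none. The long Snora43 entry had 101 and 127 counts and 4.34 and 3.88 TPM.

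**Figure D2:**
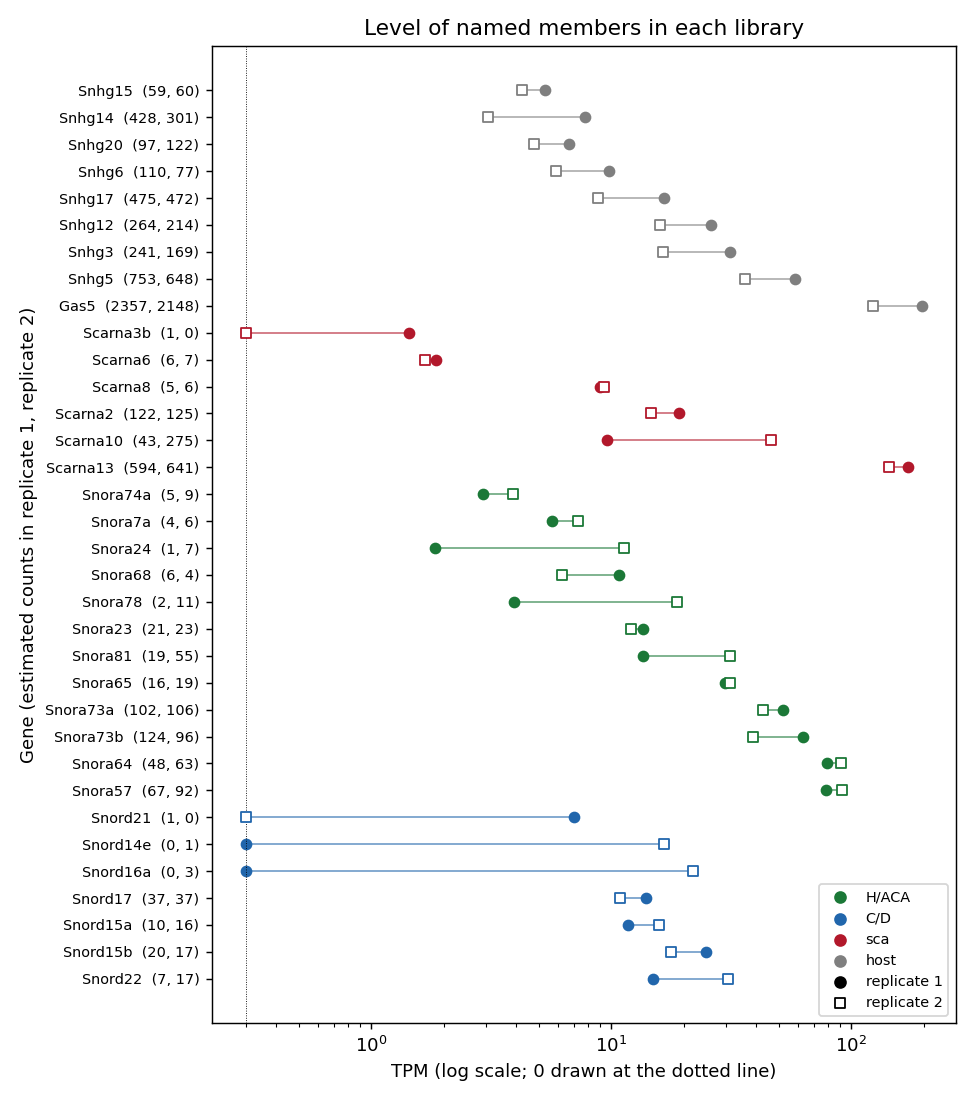
TPM (log scale) of the named members in replicate 1 (filled circles) and replicate 2 (open squares), coloured by class, with estimated counts in parentheses and 0 drawn at the dotted line. Gas5 and Scarna13 have the highest levels, all 9 hosts lie lower in replicate 2, and Scarna10 lies higher there.

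The libraries were then compared for each gene with a two-sided exact binomial test on rounded counts, after scaling by the TMM method, which sets the typical gene to an equal level. To pass, a gene needed a ratio of at least 2-fold and a p below 0.05 after Benjamini-Hochberg adjustment over all 11902 genes tested. The test compares these libraries and covers counting error only. Of all genes tested 7.3% passed, 5.08% higher in replicate 2 and 2.22% higher in replicate 1. With libraries scaled to total counts that split of 605 higher against 264 lower became 396 against 1021, and the median log2 ratio of all genes moved from 0.00 to -0.52. Of the 30 members with at least 10 counts over both libraries, 3 passed, all higher in replicate 2: Scarna10, Snora81 and Snora78. At 3 of 30 this share is near that of all genes.

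Scarna10 differed most. Its ratio of replicate 2 over replicate 1 was 7.17 (95% interval 5.18 to 10.1, adjusted p = 1.17e-46 in the exact binomial test). The authors' deposited 95% credibility bounds of its TPM, 3.81 to 16.9 and 39.3 to 50.2 in that order, did not overlap. Its host Ncapd2, a subunit of condensin, had 103 and 74.9 TPM and a log2 ratio of 0.40 after scaling. The Ncapd2 ratio of 1.32 (1.25 to 1.40, adjusted p = 3.89e-22 in the exact binomial test) was also higher in replicate 2. It lay under the 2-fold limit, so Ncapd2 did not pass. Scarna10 overlaps an exon of 1 annotated Ncapd2 transcript of the retained intron type, which had 13.6 and 6.80 counts. The deposited posterior SD of the Scarna10 count, which covers the division of shared reads, was 14.4 and 4.31 counts.

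Snora81 had a ratio of 3.24 (1.90 to 5.79, adjusted p = 3.27e-05 in the exact binomial test). Its host Eif4a2, an RNA helicase of translation, had a log2 ratio of -0.07. The deposited credibility bounds of the Snora81 TPM, 4.98 to 23.2 and 22.0 to 41.1, overlapped. The posterior SD of the Snora81 count was 5.21 and 4.56. Snora78 rests on 2 and 11 counts, with a ratio of 6.16 (1.35 to 57.2, adjusted p = 0.0332 in the exact binomial test). Scaled to total counts its adjusted p was 0.0662, so that call was lost. The deposited bounds of the Snora78 TPM, 0.64 to 12.1 and 9.51 to 31.8, also overlapped. A negative binomial exact test allowed for a common spread over all genes, estimated from these same libraries with no difference assumed between them. Scarna10 alone passed it, and the adjusted p of Snora81 was 0.349. The differences tested also enter that spread, so passing does not show a difference beyond that between further replicates.

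After TMM scaling most guide RNAs tested had ratios above 1 and the hosts lay around 1, a difference that was not tested. The median log2 ratio was 0.56 over 11 H/ACA snoRNAs tested, of which 9 were above 0, 0.50 over 4 C/D snoRNAs (3 above 0) and 0.39 over 5 scaRNAs (5 above 0). Over the 9 host genes it was -0.05, with 4 above 0, and none passed. The median over all genes tested was 0.00. Under total counts Scarna13 moved from a log2 ratio of 0.27 to -0.25 and Snora57 from 0.62 to 0.10. The median of all genes moved to -0.52, and this scaling lowers every log2 ratio by the same amount. The sign for Scarna13, the class medians and the numbers of guide RNAs above 0 therefore depend on the scaling. With DESeq2 size factors the log2 ratios of Scarna13 and Snora57 were 0.27 and 0.62. Scaled to nuclear protein-coding counts they were 0.26 and 0.61, so both scalings lay near TMM. Gas5 had a log2 ratio of 0.03 and Snhg5 one of -0.05. Of all 85 genes that hold a guide RNA, protein-coding genes included, 81 were tested and none passed, with a median of -0.03. Among all genes tested 7.3% passed, and 4.36% where at least 50 counts were required.

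**Figure D3:**
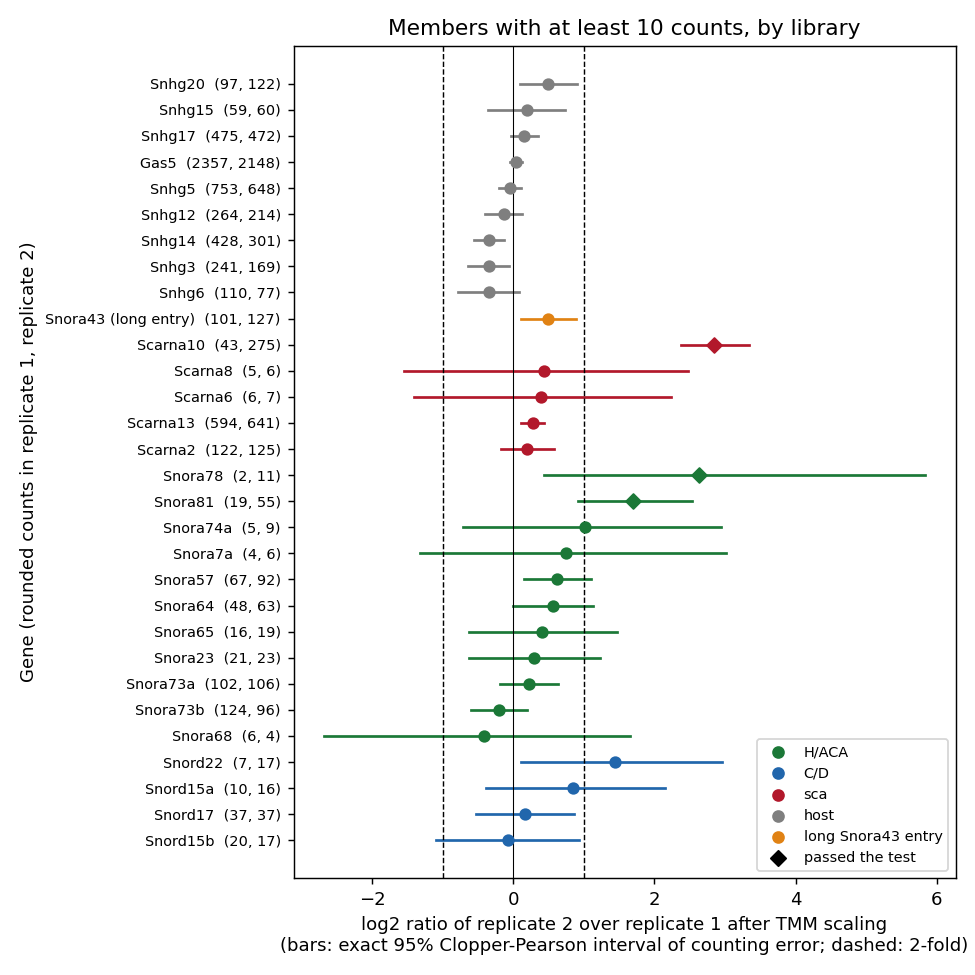
Log2 ratio of replicate 2 over replicate 1 after TMM scaling for the 30 members tested, with exact 95% Clopper-Pearson intervals of counting error, coloured by class. Diamonds mark the 3 that passed (Scarna10, Snora81 and Snora78), and dashed lines mark a 2-fold ratio. The 9 host genes all lie within 2-fold.

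Most guide RNAs lie inside another gene. In M21 133 of 146 lay within a multi-exon gene on the same strand, 74 in introns only and 59 over an exon of at least 1 annotated transcript. The 85 different hosts included 67 protein-coding genes, of which 24 encode ribosomal proteins and hold 32 guide RNAs. Of the hosts 81 had a TPM of at least 1 in both libraries. Their median was 47.3 TPM over all 85, against 7.55 over the 8433 multi-exon genes detected. In hosts of 100 TPM or more 3 of 33 C/D snoRNAs had a count, as did 3 of 60 in lower hosts. An effective length of 0 in both libraries, which leaves little room for a count, held for 20 of the 33 and 26 of the 60. Among the rest, 3 of 13 in the high hosts and 3 of 34 in the lower ones had a count. Those 34 include the 17 Snord116 copies, all without a count and all in Snhg14, which are not independent of each other. The 2 shares therefore do not show a dependence on host level. Of 12 H/ACA snoRNAs in hosts of 100 TPM or more, 2 had no count. Rpl13a and Gas5 were such hosts, with 4 and 3 C/D snoRNAs without a count.

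Guide RNAs with counts in both libraries mostly had a lower TPM than their hosts in these libraries. Over the 22 of them that lie in a host gene the median log2 ratio of guide over host, with 1 TPM added to each, was -2.77 in replicate 1 and -1.80 in replicate 2 (-2.29 ± 0.69, SD, n = 2). The guide was below its host in both libraries in 18 pairs and above it in both in 3. These pairs leave out guides with counts in 1 library only. With those, in an alternative added after the data were seen, there were 32 pairs, the median was -3.12, and 27 guides lay below their host in both libraries. The 3 guides above their hosts were Snora73a and Snora73b, both in Snhg3, and Snora78 in Snhg9. Snhg9 had 0 and 1 count, under the floor of 3, so the place of Snora78 above it is set by a host without a measurable level. Snora73b stood at 63.0 and 38.8 TPM against 31.1 and 16.4 for Snhg3, a log2 ratio of 1.09 ± 0.14, and Snora73a at 1.03 ± 0.43. Snora64 stood at 79.0 and 90.3 TPM against 779 and 505 for Rps2, a log2 ratio of -2.88 ± 0.58. Pairs that share a host, such as Snord15a and Snord15b in Rps3, are not independent, and the short effective lengths of the guides enter each ratio. Most of the paired guides are also shorter than 200 nt, the size above which RNA was kept for the libraries. Of the longer ones, Snora73a and Snora73b lay above their host, and Snord17, Scarna6 and Scarna10 lay below theirs. The part of this size selection in the ratios was not tested, so they do not give the levels of guide and host in the cells.

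**Figure D4:**
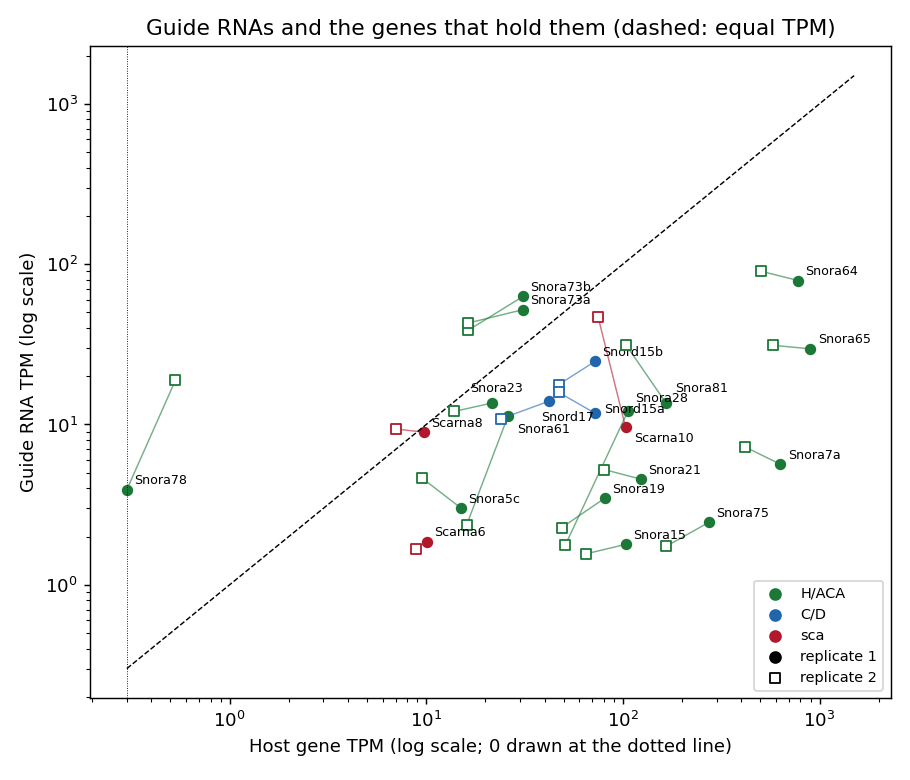
TPM of guide RNAs against TPM of the gene that holds each, for all but 1 of the 22 pairs with counts of the guide in both libraries (both axes logarithmic), in replicate 1 (filled circles) and replicate 2 (open squares), with a line joining the libraries. On the dashed line both are equal. Snora73a, Snora73b and Snora78 lie above it in both libraries, Scarna8 lies on either side of it, and the other pairs lie below it in both.

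The counts of the host genes were also divided by transcript. In Gas5, transcripts annotated as retained introns held 53.4% and 56.1% of the gene's estimated count, and 43.9% and 49.7% fell on transcripts whose exons span Snord47, Snord78 or Snord80. A spliced Gas5 transcript of 502 nt in 12 exons had the highest count, 634 and 611. Its deposited isoform percent, the transcript's share of the gene's TPM, was 39.1 and 44.7. The retained intron transcript of Gas5 with the highest count, of 2556 nt, had 504 and 599 counts but an isoform percent of 4.95 and 6.82. Shares of counts rise with transcript length and are therefore not shares of molecules. Snord47, Snord78 and Snord80 had no count as genes of their own, and each had an effective length of 0 in both libraries. In Snhg5 retained introns held 15.9% and 14.4% of the count, all on transcripts that span Snord50a or Snord50b, and in Snhg17 41.3% and 48.0%. The Snhg17 share fell on a transcript of 3896 nt, whose isoform percent was lower, at 14.7 and 23.2. In Snhg15 59.5% and 48.3% of the count fell on a transcript that spans Snora9. Snora9 had no count. Snhg3, Snhg6, Snhg12, Snhg14, Snhg15 and Snhg20 have no typed transcript of the retained intron kind, so no such share can be measured in them.

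Over all 3688 genes with a retained intron transcript and at least 50 counts, the median share was 8.28% and 8.95%, and over the 19 non-coding multi-exon genes among them 41.3% and 46.2%. Gas5 and Snhg17 are themselves among those 19. A part of Snhg5, Snhg12 and Snhg20 counts, up to 50.7% in Snhg20, fell on transcripts with no M21 transcript of the same length and could not be typed. How reads were divided among overlapping transcripts is an estimate, and its part in these shares was not tested.

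**Figure D5:**
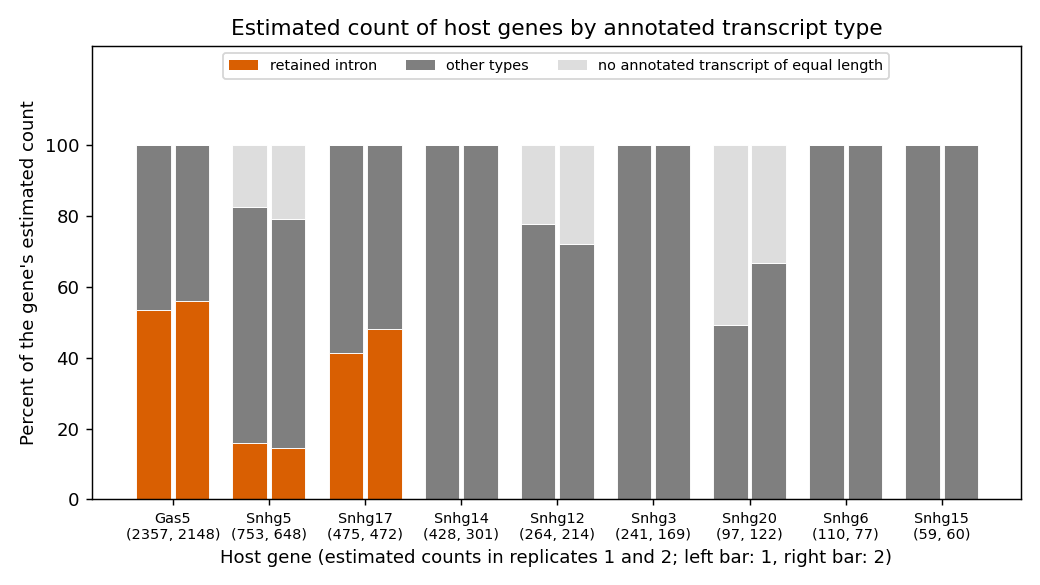
Percent of the estimated count of each host gene on transcripts annotated as retained introns, on other types and on transcripts without an M21 transcript of equal length (left bar replicate 1, right bar replicate 2; counts in parentheses). Retained introns hold 53.4% and 56.1% of the count in Gas5 and 41.3% and 48.0% in Snhg17. These are shares of counts, in which long transcripts weigh more, and not of molecules. Hosts other than Gas5, Snhg5 and Snhg17 have no typed transcript of this kind, so their bars show none by annotation.

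Snhg14 is the long host transcript of the imprinted Snord116 cluster of the Prader-Willi region, best known from neurons. It had 428 and 301 counts, of which 267 and 166 fell on a transcript of 6861 nt (chr7:59937371-59975759) and 149 and 135 on one of 2193 nt (chr7:59969577-59974431). Both lie at the 5′ end of the gene on the minus strand. The 17 Snord116 copies lie further 3′, between 59861731 and 59904848 on chromosome 7, are 94 nt long and had no count in either library. Transcripts of Snhg14 in that stretch had none either, and 2 further 3′ had 9.41 and 3 counts in replicate 1 and none in replicate 2.

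RNA of the genes for proteins that bind guide RNAs was found in both libraries. The 5 listed genes of C/D particles ranged from 6.39 TPM for Rrp9, which binds the U3 RNA, to 130 TPM for Nop56 as means. Fibrillarin (Fbl) had 14.0 and 10.1 TPM and Nop58 had 135 and 71.9. The 4 H/ACA core genes ranged from 10.4 TPM for Nop10 to 46.4 for Dkc1, which encodes dyskerin, the pseudouridine synthase. All 10 assembly factors, all 9 genes of intron debranching and trimming and all 10 of nonsense-mediated decay, which degrades many spliced Snhg RNAs, were at 1 TPM or more in both libraries. Of 4 Cajal body genes 3 were, and Coil, which encodes the scaffold coilin, had 1.31 and 0.90 TPM. None of these 42 genes passed the test between the libraries, against 7.3% of all genes, or 4.36% where at least 50 counts were required. The medians of the 6 lists lay between log2 ratios of -0.20 and 0.02. Nop56 and Nop58 are also hosts: Snord57 and Snord110 lie in the first and Snord11 and Snord70 in the second, all without counts.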

How the data were processed

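Total RNA longer than 200 nt from 2 libraries was measured. The deposited values are, per the file headers, expected counts of reads (estimated counts, without normalisation), TPM as maximum-likelihood and posterior mean estimates, FPKM, 95% credibility bounds, and the isoform percent of each transcript. The deposited records name mm10 and GENCODE M4; neither aligner nor quantifier is given in the sources used here. Names, types, positions and sequences came from GENCODE M21 (GRCm38) by identifier, which matched 42462 of 43346 genes. A transcript was typed only where its deposited and M21 lengths were equal. A host is a multi-exon gene whose body holds the guide RNA on the same strand. The sequence length equalled the deposited length for 145 of 146 guide RNAs.

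The libraries were compared by a two-sided exact binomial test (SciPy 1.17.1) on rounded estimated counts against the TMM size ratio of 0.892 (edgeR 4.0.16, R 4.3.3), for genes with at least 10 counts over both, with Benjamini-Hochberg adjustment over all of them and a 2-fold limit. Ratios have exact 95% Clopper-Pearson intervals. Reads without molecular identifiers are not independent molecules. The script was tested on simulated data. Named were hosts with a mean TPM of at least 1, scaRNAs with a count, the 12 H/ACA and 12 C/D snoRNAs (here 7 with a count) with the highest counts, members that passed, listed genes and hosts. Other members were named after their values were seen. Members and lists were chosen with earlier results of these data known. Snhg1, Snhg8, Snhg10, Snord43 and second copies of Snord80 and Snora16a were not analysed here, and 1 guide and host pair is not reported here by itself. Alternatives were other scalings, filters, estimates and a negative binomial test (DESeq2 1.42.0 for size factors), and leaving out each library. Python 3.11.15, pandas 2.3.3, NumPy 2.4.6, Biopython 1.88 and matplotlib 3.10.9 were used.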

Additional observations from a re-analysis of the deposited data

How the results depend on the processing

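The number of members that passed between the libraries was 3, also with DESeq2 size factors, with protein-coding scaling and with no minimum count, and 2 with total counts or at least 50 counts. With total counts 11.9% of all genes passed, and with at least 50 counts 4.36%. Without the 2-fold limit the number of members rose to 8 of 30 (7 higher and 1 lower in replicate 2), where 32.4% of all genes passed. It fell to 1 with the negative binomial exact test, whose common dispersion, estimated from the same libraries, was 0.0689. In that test 2.49% of all genes passed. The log2 ratio of Snora78 was 2.10 with total counts and 2.55 in the negative binomial test, and that of Snora81 was 1.69 in the latter, with none of these past the threshold. Without the 2-fold limit Scarna13 (0.27) and Snora57 (0.62) passed.

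The number of H/ACA snoRNAs detected moved from 20 to 39 with posterior mean TPM and to 7 with at least 10 counts in both libraries. That of C/D snoRNAs moved from 4 to 7 with a TPM of at least 1 in either library and to 46 with posterior mean TPM, and that of scaRNAs from 5 to 3 with at least 10 counts. A posterior mean can be above 0 where the count is 0. With 1 library left out the numbers were 22 to 24 for H/ACA snoRNAs, 5 to 6 for C/D snoRNAs, 5 to 6 for scaRNAs and 9 for hosts. As a share of TPM, H/ACA snoRNAs held 0.0414%, C/D snoRNAs 0.0093%, scaRNAs 0.0215% and hosts 0.0288%. Of the count outside ribosomal and mitochondrial genes they held 0.00536%, 0.00092%, 0.0102% and 0.0498%. The order of the classes thus changed with the measure, since TPM divides by short effective lengths. With 1 library left out the shares of all counts were 0.00128% to 0.0014% (H/ACA), 0.000223% to 0.000235% (C/D), 0.00244% to 0.0026% (sca) and 0.0104% to 0.0151% (hosts). The median log2 ratio of guide over host lay between -2.77 and -1.80 with either library left out, another pseudocount or posterior means, and was -3.12 with guides that had counts in 1 library only added (an alternative chosen after the data were seen).

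No paired analysis was possible because the labels give 1 group. Few counts limit most guide RNAs: 107 of 146 had none.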

Other observations

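Guide RNAs whose symbols lie outside the member rule gave further values. The U3 RNAs, box C/D RNAs that act in the cutting of the ribosomal RNA precursor, had more counts in replicate 2. After TMM scaling 17 of the 20 member guide RNAs tested also had a log2 ratio above 0, a number that depends on the scaling. Rnu3a had 50 and 125 estimated counts and 23.2 and 45.8 TPM, a ratio of 2.80 (95% interval 2.00 to 3.97, adjusted p = 1.84e-09 in the exact binomial test). Rnu3b2 and Rnu3b4 had the same 43.5 and 87.5 counts each, which is an equal division of shared reads, and a ratio of 2.24 (1.54 to 3.30). They therefore count as 1 measurement. Scaled to total counts the ratios were 1.95 for Rnu3a and 1.56 for Rnu3b2 and Rnu3b4, under the 2-fold limit, so these calls were lost. They were also lost in the negative binomial exact test, with adjusted p = 0.358 and 0.95. Rnu3b1 and Rnu3b3 had no count. Terc, the RNA of telomerase, which ends in an H/ACA domain, had 15 and 11 counts and did not pass.

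The 34 H/ACA snoRNAs of 125 to 149 nt were also described by their letters and hosts. The 6 with 10 or more counts over both libraries (Snora57, Snora64, Snora65, Snora68, Snora78 and Snora7a) had a median G and C content of 57.1% (50.7% to 64.1%). It was 46.7% over 15 with fewer counts and 47.7% over 13 without counts, which ranged from 38.0% to 55.8%. The median host level was 642 TPM for 5 of the 6 with a host, 84.5 TPM for 13 of the 15, and 21.0 TPM for 12 of the 13. Median lengths were 132.5, 132 and 132 nt. These groups were formed from the counts after they were seen, so the values are a description without a test.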
